A study of Mus musculus with 6 samples.

Results

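Ribosomal protein genes were chosen by symbol: protein-coding genes of GENCODE M21 named Rpl or Rps followed by a digit, a, p or x, without the Rps6k kinases and the -ps pseudogenes, for the ribosome of the cytosol, and genes named Mrpl or Mrps followed by a digit for the ribosome of the mitochondrion. The rule found 164 of the 48709 genes in the count table, 86 cytosolic and 78 mitochondrial. After the filter on low counts, 83 cytosolic and 77 mitochondrial genes were tested. The cytosolic genes fall into 52 of the large and 34 of the small subunit, and the mitochondrial genes into 49 of the large and 29 of the small subunit. The symbol rule also took in Rps19bp1, which encodes a binding partner of a ribosomal protein and not a ribosomal protein. It left out Fau and Rack1, among others, whose products are part of the cytosolic ribosome under other names.

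RNA sequencing had been made of whole cerebellum from C57BL/6J mice of 40 weeks. The 3 Ki samples carried the SCA7 140Q/5Q knock-in, in which the long allele of Atxn7 encodes 140 glutamines and the short allele 5, and are titled Kihet. The 3 WT samples were wild type. Spinocerebellar ataxia type 7 (SCA7) is caused by an expanded glutamine repeat in ataxin-7, and the knock-in places such a repeat in the mouse gene. The labels do not say that the samples came from separate mice, so each p-value reflects the spread between libraries of a group, and that spread may be technical.

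A ribosome has a small subunit, which reads the messenger RNA, and a large subunit, which joins amino acids. Cytosolic ribosomal proteins are assembled on ribosomal RNA in the nucleolus, and their messenger RNAs are known for a tract of pyrimidines at the very 5′ end (5′ TOP) through which mTOR signalling controls their translation. Mitochondrial ribosomal proteins are encoded in the nucleus, imported into mitochondria and serve to translate the few messenger RNAs of the mitochondrial genome.

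The 3 Ki libraries held 35562582, 39826478 and 34630391 counts, and the 3 WT libraries 49127673, 44090125 and 39528292 counts. Over all 16699 genes tested, edgeR called 105 higher and 213 lower in Ki than in WT, a call meaning an adjusted p of 0.05 or less. Atxn7, the targeted gene, had 22.4, 24.1 and 22.1 CPM (counts scaled to the size of the library) in Ki and 25.9, 26.2 and 22.6 CPM in WT, and these counts do not separate the alleles, so they do not check the labels. Defining markers of the cerebellum were present in every library. Of 4 granule neuron markers edgeR called 1 lower in Ki (Cbln3), of 4 Purkinje cell markers 2 (Car8 and Calb1) and of 3 astroglial markers 1 (Aqp4), at an adjusted p between 0.0144 and 0.0227 and beside 1.28% of all genes. The log2 fold changes of these markers ran from -0.55 for Car8 to -0.05 for Neurod1 (edgeR adjusted p 0.87), with medians of -0.30 for the granule neuron, -0.44 for the Purkinje cell and -0.30 for the astroglial list. Of 3 oligodendrocyte, 4 microglia and 3 endothelial markers edgeR called 0, with medians of 0.05, 0.09 and -0.14. Mbp, C1qa and Cldn5, the most abundant of each, were at 0.03 ± 0.13, 0.31 ± 0.10 and -0.14 ± 0.10 (SE). The microglia markers ran from -0.32 to 0.31. Flt1 had the smallest edgeR adjusted p of the endothelial list, 0.0514, at -0.43 ± 0.09. DESeq2 and the edgeR likelihood ratio test each called 1 microglia and 1 endothelial marker lower, beside 3.12% and 2.95% of all genes. Of 8 brainstem markers, 6 were tested and 1, Slc18a2, was called higher in Ki, beside 0.629% of all genes. At an unadjusted edgeR p under 0.05, 5 were higher, beside 9.81% of all genes, and the median log2 fold change was 3.27. DESeq2 called 2 higher, the edgeR likelihood ratio test 4 and limma-voom 0, beside 2.47%, 2.73% and 0.467% of all genes. Slc18a2 had 16.5, 1.56 and 10.4 CPM in Ki and 0.410, 1.46 and 0.258 CPM in WT. The summed level of the 8 was 60.6, 8.06 and 36.3 CPM in Ki and 2.81, 7.66 and 2.45 CPM in WT. Up to 2 of the 8 were at 0 in a library. None of 6 choroid plexus markers was called by edgeR. DESeq2 called 1 lower, beside 3.12% of all genes, and 1 was lower at an unadjusted edgeR p under 0.05, beside 8.26%. The summed level of the 6 was 274, 25.6 and 1306 CPM in Ki and 524, 503 and 1889 CPM in WT. The part of these cell types in the results on ribosomal protein genes was not tested. In bulk tissue, fewer cells of a type and less RNA per cell cannot be told apart.

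The promoters of 2 genes of each ribosome are shown as examples of the start-site features that were counted. Rps10 and Mrps12 had the smallest adjusted p of their ribosome, and Rpl15 and Mrpl12 are described in detail. Each runs from 70 bases before to 30 bases after the RefSeq transcription start (GRCm38.p6), 5′ to 3′ on the gene's strand, in lower case. Capitals mark the pyrimidine tract that begins at the start site and the motif CCGGAAG, the core bound by ETS factors such as GABP, on either strand. The positions are chr17:27635215-27635314 on the minus strand for Rps10, chr14:18270957-18271056 on the minus strand for Rpl15, chr7:28741792-28741891 on the minus strand for Mrps12 and chr11:120484567-120484666 on the plus strand for Mrpl12.
Rps10 promoter: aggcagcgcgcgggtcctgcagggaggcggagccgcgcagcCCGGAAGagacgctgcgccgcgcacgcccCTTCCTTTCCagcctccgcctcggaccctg
Rpl15 promoter: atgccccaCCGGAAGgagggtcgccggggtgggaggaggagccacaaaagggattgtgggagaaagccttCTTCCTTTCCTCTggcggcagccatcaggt
Mrps12 promoter: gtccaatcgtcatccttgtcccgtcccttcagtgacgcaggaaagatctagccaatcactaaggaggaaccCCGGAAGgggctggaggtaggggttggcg
Mrpl12 promoter: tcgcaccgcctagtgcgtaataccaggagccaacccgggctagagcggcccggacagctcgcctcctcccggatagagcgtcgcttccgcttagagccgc

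Rps10 and Rpl15 start on a C followed by at least 4 pyrimidines, the letters searched for as a 5′ TOP start, and the 2 mitochondrial genes do not. The printed stretch of Mrpl12 holds neither marked feature. RefSeq promoter windows of 300 bases were matched for 66 of the 86 cytosolic genes (78 windows) and 69 of the 78 mitochondrial genes (75 windows). The TOP start was found in 14 of the cytosolic windows (17.9%) and in 0 of the mitochondrial ones, against 2.51% of 32851 windows of all genes. The 14 belong to Rpl14, Rpl15, Rpl28, Rpl35, Rpl35a, Rpl38, Rplp2, Rps6, Rps10, Rps15a, Rps18, Rps21, Rps27 and Rps27rt. CCGGAAG, searched on both strands, stood in 34.6% of the cytosolic and 34.7% of the mitochondrial windows, against 8.86% of all windows. AAGATGGC, the core bound by YY1, stood in 10.3% of cytosolic and 16% of mitochondrial windows, against 2.75% of all. The box TATAAA was in 8.97% of cytosolic and 6.67% of mitochondrial windows, against 13.6% of all. These are matches of letters within a window from 250 bases before to 50 bases after an annotated start site, and say nothing of binding. The TOP start was searched at the start site alone.

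The cytosolic ribosomal protein genes were mostly higher in Ki than in WT by small amounts, and none passed the quasi-likelihood test used for calls. In edgeR's quasi-likelihood test 0 of 83 were called, where 1.90% of all genes tested were called (0.629% higher and 1.28% lower). The smallest adjusted p was 0.105, for Rps10. At an unadjusted edgeR p under 0.05, 18 were higher and 0 lower, which is 21.7% higher against 9.81% of all genes tested (8.26% of all were lower, and 18.1% were either). DESeq2 called 3 higher, Rpl36, Rplp1 and Rps10, with 2.47% of all genes called higher by that tool. The edgeR likelihood ratio test also called 3 higher, the same genes, against 2.73% of all genes, and limma-voom called 0, against 0.467%. More members were called higher with the replicate number added to the fit as a block, where 6.14% of all genes were called higher. Calls under the block and the other alternatives are given at the end.

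The log2 fold change was above 0 in 67 of the 83 cytosolic genes (80.7%), against 51.3% of all genes tested. Its median was 0.13, with quartiles of 0.02 and 0.23 and a range from -0.16 to 0.70, beside a median of 0.01 over all genes. Of these genes, 19 were higher in every Ki library than in any WT library and 1, Rpl30, was lower in every Ki library, which is 22.9% higher against 12.3% of all genes (11.5% of all were lower). The small subunit (34 genes) had a median of 0.17 and the large subunit (49 genes) of 0.13. Of the small-subunit genes 28 of 34 were above 0, and of the large-subunit genes 39 of 49.

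The mitochondrial ribosomal protein genes lay closer to no difference. None of 77 was called by edgeR, DESeq2, limma-voom or the edgeR likelihood ratio test, and the smallest edgeR adjusted p was 0.138, for Mrps12. Some were called higher with the replicate block or with no filter on low counts, as given at the end. At an unadjusted edgeR p under 0.05, 10 were higher and 1 lower, 13.0% higher against the 9.81% of all genes. The log2 fold change was above 0 in 52 of 77 (67.5%), with a median of 0.05, quartiles of -0.03 and 0.16 and a range from -0.18 to 0.44. Of the 77, 9 were higher in every Ki library and 4, Mrpl19, Mrpl30, Mrpl35 and Mrps35, lower in every Ki library, and 11.7% higher is near the 12.3% of all genes. The large subunit (48 genes) had a median of 0.09 and the small subunit (29 genes) of 0.02. The cytosolic median exceeded the mitochondrial one by 0.08 on the log2 scale.

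**Figure D1:**
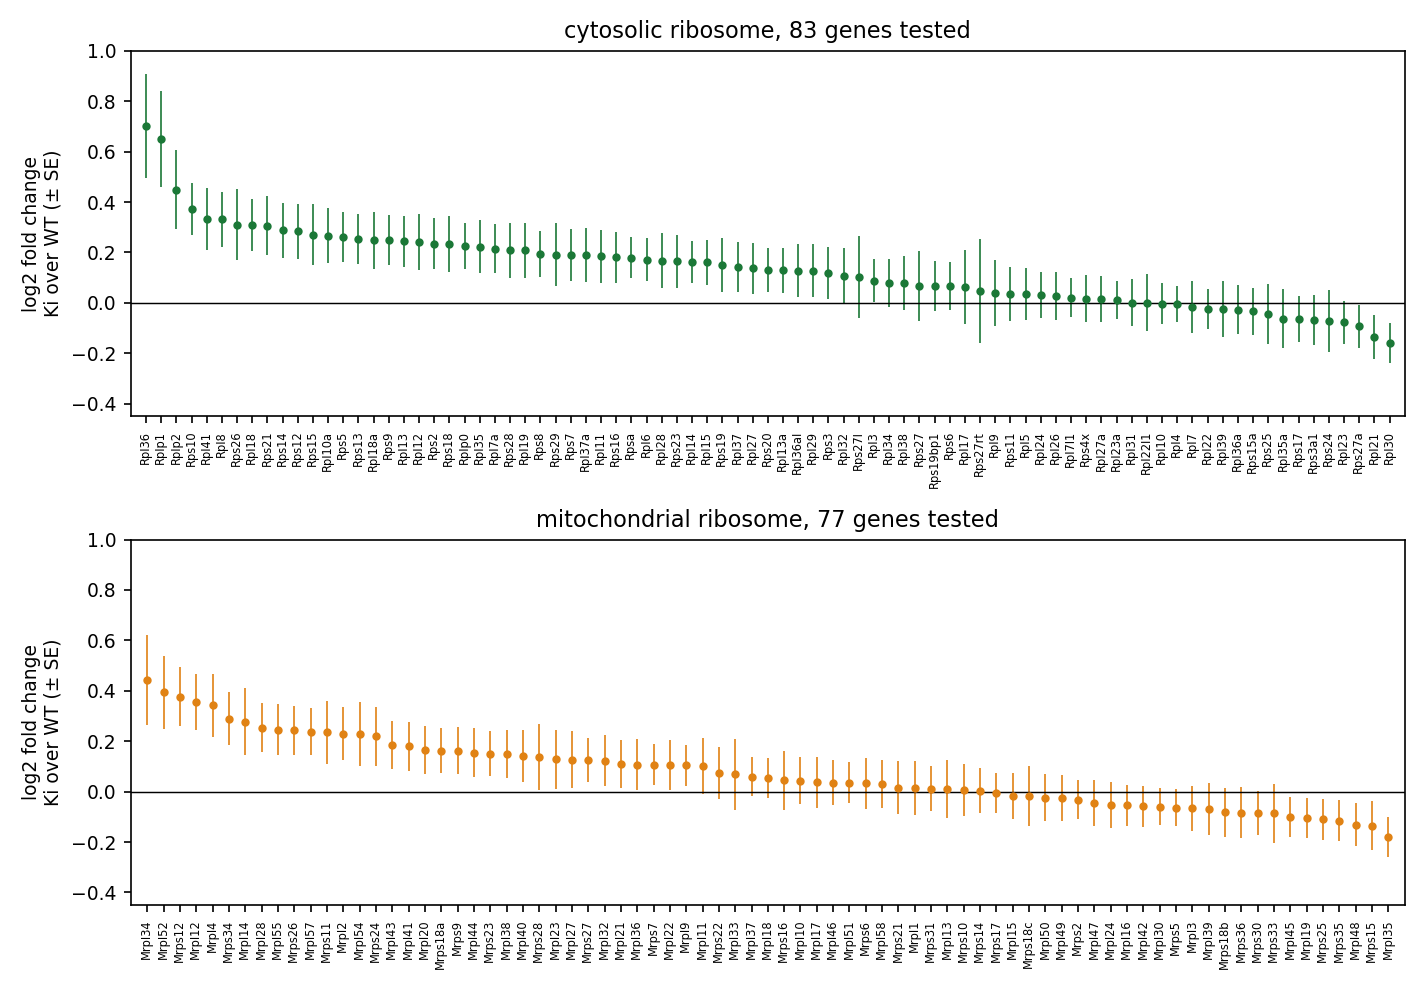
Log2 fold change (Ki over WT, y axis) with its SE for each tested gene of the cytosolic ribosome (upper panel, 83 genes) and the mitochondrial ribosome (lower panel, 77 genes), ranked from highest to lowest. The cytosolic values run from 0.70 for Rpl36 to -0.16 for Rpl30 and the mitochondrial values from 0.44 for Mrpl34 to -0.18 for Mrpl35, with 67 of 83 and 52 of 77 above 0.

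One Ki library carried much of this. For each gene, the log2 CPM of each library was set against the gene's mean over the 6 libraries. The cytosolic median of this deviation was 0.01, -0.06 and 0.26 in Ki 1, 2 and 3, and -0.06, -0.12 and -0.01 in WT 1, 2 and 3. Only Ki 3 stood clear of the other libraries, and Ki 2 lay at the level of WT 1. Of the 83 cytosolic genes, 66 had their highest level in Ki 3 and 17 in WT 1, while 32 had their lowest level in WT 1, 25 in WT 2, 22 in Ki 2 and 4 in Ki 1. Ki 3 held the highest value in 22.4% and WT 1 in 21.6% of all genes tested.

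The mitochondrial median deviation was -0.01, -0.06 and 0.16 in Ki and 0.01, -0.08 and -0.005 in WT, so Ki 3 was again the high library. It held the highest level of 53 of the 77 mitochondrial genes. Without Ki 3, the cytosolic median log2 fold change was 0.04, with 49 of 84 genes tested above 0, and the mitochondrial median was -0.01, with 36 of 77 above 0. Leaving out any other library left the cytosolic median between 0.10 (without WT 2) and 0.20 (without Ki 2). The mitochondrial median then lay between 0.03 (without WT 2) and 0.12 (without Ki 2). The number of genes above 0 also fell without WT 2, to 53 of 84 cytosolic and 40 of 77 mitochondrial genes. Without Ki 1, Ki 2, WT 1 or WT 3, between 63 and 75 cytosolic and between 48 and 59 mitochondrial genes were above 0. The SD over libraries was also wider in Ki: the median SD of log2 CPM per gene was 0.171 in Ki and 0.107 in WT for the cytosolic genes, and 0.126 in Ki and 0.0926 in WT for the mitochondrial genes, beside 0.144 in Ki and 0.132 in WT over all genes.

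**Figure D2:**
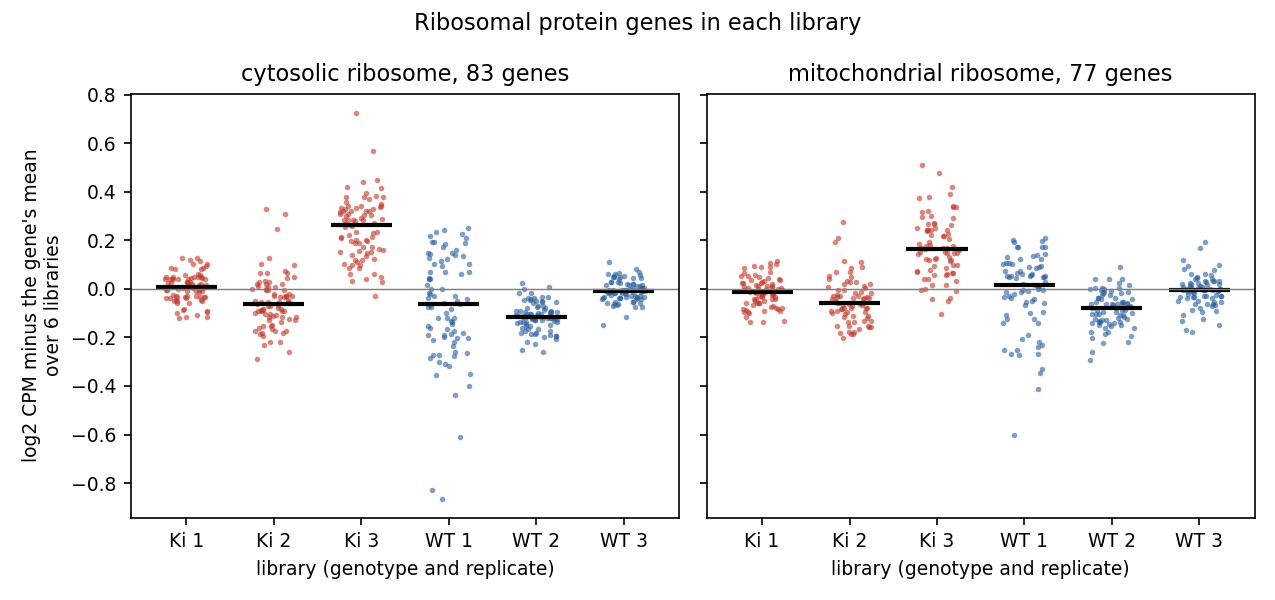
Each point is 1 gene's log2 CPM in a library minus its mean over the 6 libraries (y axis), by library (x axis), for 83 cytosolic (left) and 77 mitochondrial genes (right); bars are medians. Ki 3 has medians of 0.26 and 0.16, and the other 5 libraries have medians between -0.12 and 0.01 in both panels.

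As a share of all counts, the cytosolic ribosomal protein genes held 1.03, 0.948 and 1.21% in Ki and 0.935, 0.860 and 0.957% in WT, a mean of 1.06% ± 0.132 in Ki and 0.917% ± 0.0506 in WT (SD, n = 3 each). Ki 2 lay below WT 3, so the groups overlapped. The mitochondrial genes held 0.291, 0.274 and 0.328% in Ki and 0.282, 0.254 and 0.276% in WT, a mean of 0.297% ± 0.0276 in Ki and 0.271% ± 0.0144 in WT (SD, n = 3 each), also with overlap. Per length, as TPM (transcript abundance, computed from the counts and the exon length of each gene), the cytosolic genes summed to 24503, 23400 and 28278 in Ki and 21597, 21018 and 22645 in WT. On that scale every Ki library was above every WT library. The same held for the mitochondrial genes, at 5081, 4922 and 5662 TPM in Ki and 4851, 4497 and 4759 TPM in WT. There Ki 2 was barely above WT 1. Shares of counts and TPM rest on library totals, without the scaling factors of the fit. With library size alone, the median log2 fold change of all genes tested was 0.08 and not 0.01.

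The 2 ribosomes were also set against each other within each library. The mean log2 CPM of the cytosolic genes exceeded that of the mitochondrial genes by 1.53, 1.51 and 1.59 in Ki and 1.46, 1.48 and 1.51 in WT. The mean was 1.54 ± 0.0432 in Ki and 1.49 ± 0.0293 in WT (SD, n = 3 each). Ki 2 lay below WT 3, at 1.505 and 1.515, so the groups overlapped.

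The large-subunit stalk recruits the translation factors to the ribosome, and Rplp0 forms its base while Rplp1 and Rplp2 are its acidic arms. Rplp1 had 211, 242 and 286 CPM in Ki and 106, 181 and 185 CPM in WT. All Ki libraries lay above all WT libraries, and WT 1 was far below the other WT libraries. The log2 fold change was 0.65 ± 0.19 (SE), with an edgeR adjusted p of 0.115. Rplp2 had 75.1, 88.6 and 101 CPM in Ki and 48.9, 72.3 and 73.1 CPM in WT, with the same low WT 1 and a Ki 1 just above WT 3. Its log2 fold change was 0.45 ± 0.16 (edgeR adjusted p 0.177). Rplp0 had 194, 193 and 231 CPM in Ki and 165, 179 and 185 CPM in WT, also without overlap, and a log2 fold change of 0.22 ± 0.09 (edgeR adjusted p 0.233).

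Rpl36, a protein of the large subunit, had the largest difference of all members, with 35.5, 43.1 and 57.6 CPM in Ki and 19.6, 32.1 and 32.1 CPM in WT. The groups did not overlap, Ki 3 was the highest and WT 1 the lowest. Its log2 fold change was 0.70 ± 0.21 (edgeR adjusted p 0.118); without Ki 3 it was 0.50 and without WT 1 it was 0.49. For Rplp1 the values were 0.54 without Ki 3 and 0.42 without WT 1. Rpl41, a very short basic peptide at the interface of the subunits, had 122, 115 and 159 CPM in Ki and 97.3, 103 and 114 CPM in WT, the groups barely apart, and a log2 fold change of 0.33 ± 0.12 (edgeR adjusted p 0.195). Rpl8, which lies near the peptidyl transferase centre, had 290.5, 295 and 343 CPM in Ki and 208, 258 and 272 CPM in WT. It was higher in every Ki library than in any WT library, with a log2 fold change of 0.33 ± 0.11 (edgeR adjusted p 0.162). Rpl18, also of the large subunit, had 94.3, 99.5 and 112 CPM in Ki and 71.2, 87.8 and 87.8 CPM in WT. Its groups did not overlap, and the log2 fold change was 0.31 ± 0.10 (edgeR adjusted p 0.164).

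In the small subunit, Rps10, which sits on the head of the subunit, had 89.3, 92.1 and 113 CPM in Ki and 70.6, 75.1 and 81.8 CPM in WT. Every Ki library was above every WT library and Ki 3 was the highest, with a log2 fold change of 0.37 ± 0.10 (edgeR adjusted p 0.105). Rps26, which lies at the exit of the messenger RNA channel, had 47.3, 48.9 and 63.0 CPM in Ki and 34.9, 44.7 and 48.8 CPM in WT. Ki 1 was below WT 3, so its groups overlapped, and the log2 fold change was 0.31 ± 0.14 (edgeR adjusted p 0.282). Rpl30, the one cytosolic gene with every Ki library below every WT library, had 86.8, 88.4 and 92.3 CPM in Ki and 107, 93.0 and 98.3 CPM in WT. Its log2 fold change was -0.16 ± 0.08 (edgeR adjusted p 0.328).

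Of the cytosolic genes, the most abundant per length were Rplp1, Rps15, Rps29, Rpl4 and Rpl8. Rplp1 had 1926 ± 257 TPM in Ki and 1187 ± 316 TPM in WT, and Rps15, of the small-subunit head, 1246 ± 172 TPM in Ki and 1001 ± 99.3 TPM in WT (SD, n = 3 each). The log2 fold change of Rps15 was 0.27 ± 0.12 (edgeR adjusted p 0.271), and -0.08 with offsets for GC content and length. Rps29, of the small subunit, had 999.9 ± 119 TPM in Ki and 848 ± 109 TPM in WT. Rpl4, whose loop lines the exit tunnel for the growing protein, had 854 ± 33.1 TPM in Ki and 831 ± 48.8 TPM in WT (SD, n = 3 each), and its log2 fold change of -0.005 ± 0.07 was among the nearest to 0 of all members (edgeR adjusted p 0.978). Over the 83 tested genes the mean over all libraries ran from 35.3 to 1556 TPM with a median of 183, beside a median of 55.4 TPM (7.85 to 175) for the 77 mitochondrial genes and 16.8 TPM over all genes. Exon lengths count every annotated exon, so TPM understates genes with long, rarely used annotated exons.

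Among the mitochondrial genes, Mrps12, of the decoding region of the small subunit, had 26.4, 30.6 and 34.7 CPM in Ki and 21.02, 25.6 and 24.1 CPM in WT. The groups did not overlap, and the log2 fold change was 0.38 ± 0.12 (edgeR adjusted p 0.138). Mrpl12, the mitochondrial counterpart of the bacterial stalk protein L7/L12, had 68.5, 70.3 and 86.6 CPM in Ki and 55.0, 55.2 and 66.0 CPM in WT. Each Ki library was above each WT library, and the log2 fold change between the groups was 0.36 ± 0.11 (edgeR adjusted p 0.143). Per length, Mrpl12 had 191 ± 21.6 TPM in Ki and 145 ± 14.4 TPM in WT (SD, n = 3 each), and its mean over all libraries was the second highest of the mitochondrial genes, after Mrpl41.

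Mrpl34, of the large subunit, had the largest mitochondrial difference, 0.44 ± 0.18 (edgeR adjusted p 0.231), but Ki 1 at 14.9 CPM lay below WT 2 and WT 3 at 15.1 and 15.8 CPM. Mrpl52 had 12.9, 13.4 and 18.4 CPM in Ki and 10.2, 11.8 and 11.9 CPM in WT, without overlap, and a log2 fold change of 0.39 ± 0.15 (edgeR adjusted p 0.196). Mrpl4 (0.34 ± 0.12) and Mrpl14 (0.28 ± 0.13) overlapped between the groups, and Mrps34 (0.29 ± 0.10) and Mrpl28 (0.25 ± 0.10) did not; the edgeR adjusted p of these 4 lay between 0.187 and 0.304. Mrpl41, Mrps21 and Mrpl10 were the other most abundant mitochondrial genes per length. Their log2 fold changes were 0.18 ± 0.10, 0.02 ± 0.11 and 0.04 ± 0.09, with edgeR adjusted p of at least 0.362, and the signs of Mrps21 and Mrpl10 turned with offsets for GC content and length. Mrpl35, of the large subunit, was the lowest, with 31.7, 31.9 and 31.4 CPM in Ki and 35.1, 34.6 and 37.8 CPM in WT, apart in every library, and a log2 fold change of -0.18 ± 0.08 (edgeR adjusted p 0.266).

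Several cytosolic ribosomal proteins have a second gene for a close paralogue. Rpl3l, known from heart and skeletal muscle, had 9, 8 and 3 counts in Ki and 11, 4 and 14 counts in WT, and Rpl39l, known from testis, had 5, 3 and 1 counts in Ki and 6, 0 and 0 counts in WT. Rpl10l, also known from testis, had 0 counts in every library. These 3 were too low to be tested. Their partners Rpl3, Rpl39 and Rpl10 had log2 fold changes of 0.09 ± 0.08, -0.03 ± 0.11 and -0.003 ± 0.08. Where both genes of a pair were tested, the smallest edgeR adjusted p was 0.562: Rpl7 and Rpl7l1 were at -0.02 ± 0.10 and 0.02 ± 0.08, Rpl22 and Rpl22l1 at -0.02 ± 0.08 and 0.001 ± 0.11, Rpl36a and Rpl36al at -0.03 ± 0.10 and 0.13 ± 0.11, and Rps27 and Rps27l at 0.07 ± 0.14 and 0.10 ± 0.16. The sign of values this near to 0 changed between scalings for Rpl7, Rpl10, Rpl22, Rpl22l1, Rpl36a and Rpl39, and with offsets for GC content and length for Rps27. Rps4x, encoded on the X chromosome, was at 0.02 ± 0.09, and Rps19bp1 was at 0.07 ± 0.10, with a sign that turned under those offsets. Among the mitochondrial genes, Mrpl53 was too low to test, with 1, 2 and 7 counts in Ki and 0, 2 and 1 counts in WT.

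Fold changes of the ribosomal protein genes ran with GC content and, less closely, with exon length. Across the 83 cytosolic genes, Spearman's rho between log2 fold change and GC content of the longest transcript was 0.52, and across the 77 mitochondrial genes 0.61, beside 0.32 over the 16656 tested genes with an annotation. With exon length rho was -0.15 for the cytosolic genes, -0.49 for the mitochondrial genes and -0.22 over all genes. These are correlations across genes that share the same 6 libraries, and genes are not independent replicates. The cytosolic genes had a median GC content of 50.9% and a median exon length of 1770 bases, the mitochondrial genes 49.7% and 2533 bases, and all genes 49.6% and 4160 bases. Rpl36, Rps10 and Rplp1, with GC contents of 60.8, 60.3 and 57.3%, were at the high end and Rpl30, with 39.1%, at the low end of the cytosolic genes.

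**Figure D3:**
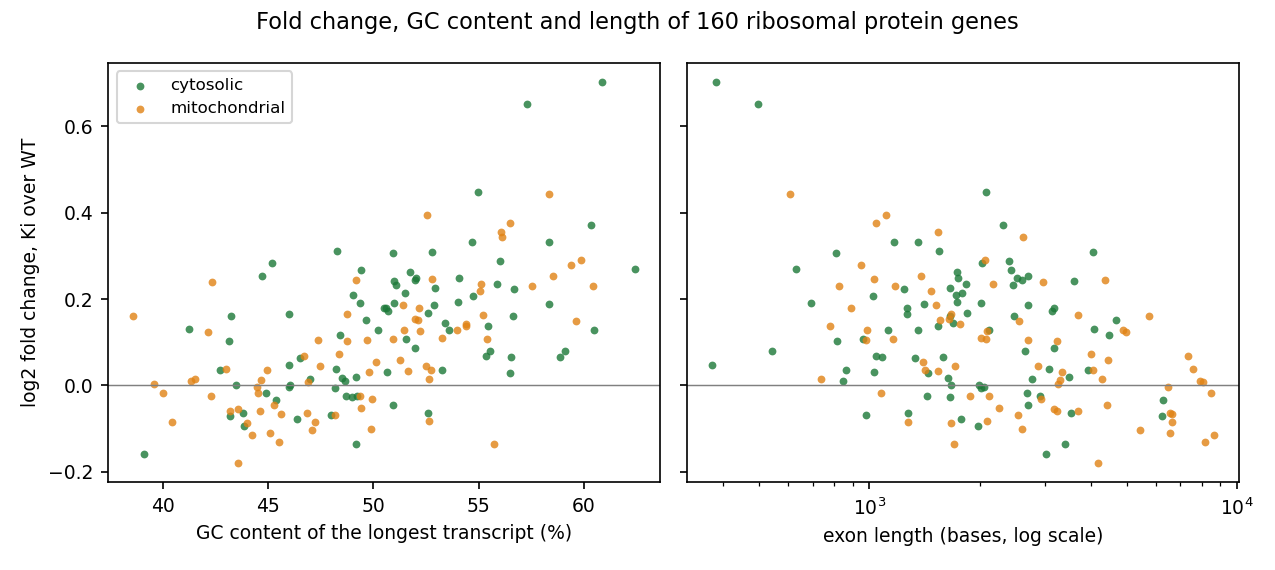
Log2 fold change (Ki over WT, y axis) of 160 tested ribosomal protein genes against the GC content of the longest transcript in percent (left) and exon length in bases on a log axis (right); each point is a gene. Fold changes are higher at high GC content, with rho of 0.52 for the cytosolic and 0.61 for the mitochondrial genes, and lower for long mitochondrial genes, with rho of -0.49.

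The same properties ordered whole libraries. Over all tested genes, a library's deviation from the gene mean correlated with GC content at -0.001, 0.22 and 0.31 in Ki 1, 2 and 3 and at -0.54, 0.06 and 0.03 in WT 1, 2 and 3. With exon length the correlations were -0.08, 0.14 and -0.43 in Ki and 0.09, 0.28 and -0.01 in WT. WT 1 was thus low, and Ki 3 high, in GC-rich genes, and Ki 3 was high in short genes. After offsets for GC content and length in each library, the cytosolic median log2 fold change was 0.06 with 57 of 83 above 0, and the mitochondrial median was 0.04 with 50 of 77 above 0. Rpl36 was then at 0.40 (edgeR adjusted p 0.0983) and Rplp1 at 0.45 (edgeR adjusted p 0.122), and the difference between both medians was 0.03.

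**Figure D4:**
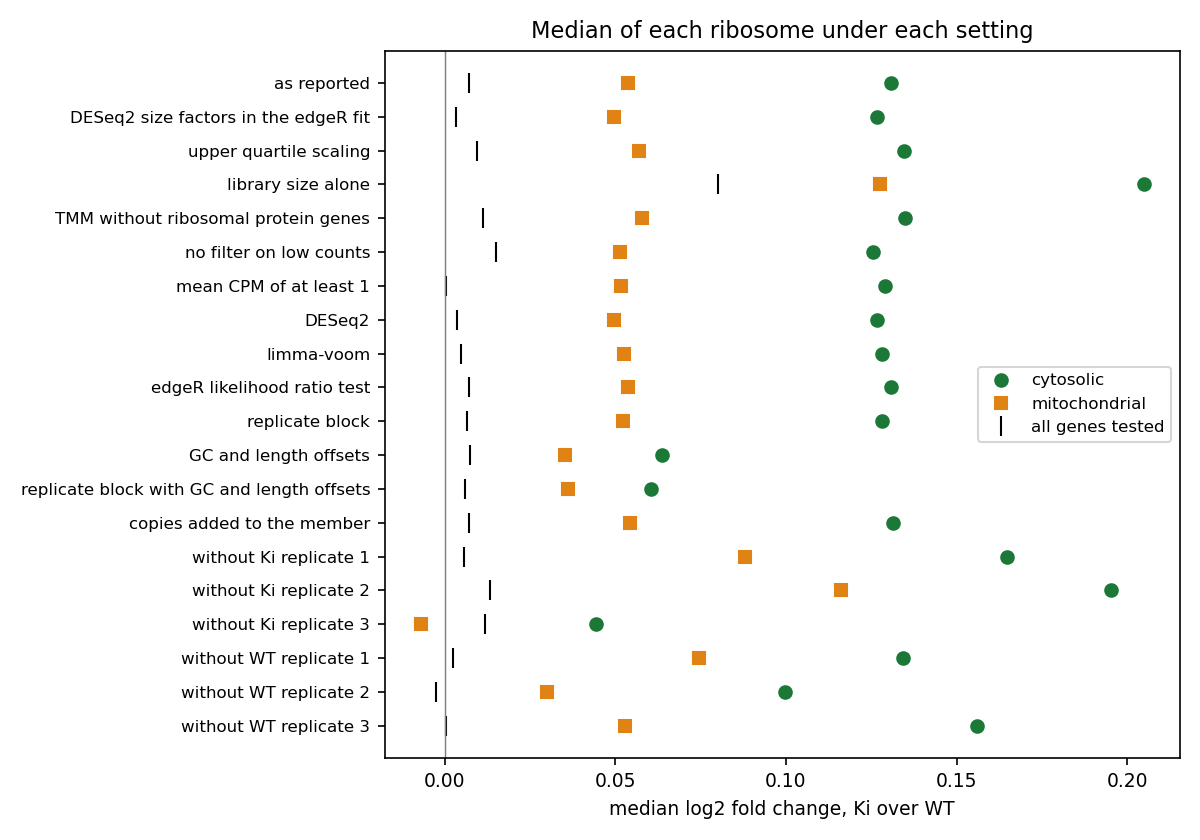
Median log2 fold change (Ki over WT, x axis) of the cytosolic (circles) and mitochondrial (squares) ribosomal protein genes and of all genes tested (vertical ticks) under each way of processing (y axis). The cytosolic median is 0.13 as reported, 0.06 with GC and length offsets, 0.20 with library size alone and 0.04 without Ki replicate 3, where the mitochondrial median is -0.01.

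Rpl15, a large-subunit protein whose gene lies on chromosome 14 (18267823 to 18271391, minus strand, mm10), 4.16 Mb from Atxn7, had 120.5, 104 and 127 CPM in Ki and 105, 101 and 108 CPM in WT. Ki 2 was below WT 1 and WT 3, and the log2 fold change was 0.16 ± 0.09 (SE; edgeR adjusted p 0.371). Within 20 Mb of Atxn7 lay also Mrps16 (6.28 Mb), at 0.05 ± 0.12, and Rps24 (10.4 Mb), at -0.07 ± 0.12, neither called; the sign of Rps24 turned with library size alone and with the GC and length offsets. The mouse genome holds many processed pseudogenes of ribosomal proteins, copies made from spliced messenger RNA and inserted elsewhere. Of annotated genes and pseudogenes, 952 matched the transcript of a member by BLAST at 90% identity or more over at least 50% of the copy, 909 for cytosolic and 43 for mitochondrial genes. Rpl15 had 17 such copies.

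Of all these copies, 51 had enough counts to be tested, and 2 were called, both higher in Ki and both copies of Rpl15. That is 3.92% of the copies tested, beside 1.90% of all genes called in either direction and 0.629% called higher. Gm8420 (chromosome 1, 51940664 to 51941261, minus strand) had 231, 179 and 185 counts in Ki and 2, 0 and 0 counts in WT. Its counts were abundant in each Ki library and all but missing in each WT library. Over the summed counts, scaled by effective library size, Ki exceeded WT by a ratio of 342, with an exact 95% interval of 94.2 to 2830 that covers counting error only. The edgeR log2 fold change was 8.16 ± 0.46 with an adjusted p of 6.98e-05, and this was the smallest adjusted p of all genes tested. Gm14094 (chromosome 2, 133199611 to 133200220, plus strand) had 26, 28 and 29 counts in Ki and 0, 1 and 0 counts in WT. The ratio was 95.3 (95% interval 16.6 to 3810) and the edgeR adjusted p 0.00175, again with no overlap between the groups. Gm13688, chosen after its values were seen because it was the only other Rpl15 copy tested, had 60, 54 and 41 counts in Ki and 84, 54 and 41 counts in WT.

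A stretch of the coding sequence of Rpl15 is printed with the matching stretch of both copies, because the bases that differ are what would tell their reads apart. It spans coding positions 75 to 164, counted from 1 at the A of the start codon, and lies in exon 2 at chr14:18270287-18270376 on the minus strand (mm10). The copies lie at chr1:51941098-51941187 on the minus strand and chr2:133199685-133199774 on the plus strand. Capitals mark each position at which either copy differs from Rpl15, in Rpl15 itself, and the differing bases in the copies.
Rpl15: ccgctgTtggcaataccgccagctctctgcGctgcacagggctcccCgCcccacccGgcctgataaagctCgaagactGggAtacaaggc
Gm8420: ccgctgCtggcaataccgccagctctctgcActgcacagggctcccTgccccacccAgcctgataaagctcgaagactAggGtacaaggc
Gm14094: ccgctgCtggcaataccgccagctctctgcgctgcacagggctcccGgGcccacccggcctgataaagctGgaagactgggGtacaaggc

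In this stretch Gm8420 has 6 substitutions relative to Rpl15 (T81C, G105A, C121T, G131A, G153A and A156G) and Gm14094 has 5 (T81C, C121G, C123G, C145G and A156G). Over the whole coding sequence of 615 bases, Gm8420 has 20 over 596 aligned bases (96.6% identity in the BLAST match) and Gm14094 has 28 over 610. The BLAST match of Gm14094 spans 615 positions with gaps included and has 94.6% identity, gaps counted as differences. They share 6 substitutions, G15A, T81C, A156G, T386A, C410T and A480G. Counts per gene do not show which bases the reads carried, so it was not tested whether the reads counted on the copies came from them.

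Against the parent gene the counts on the copies were few. Gm8420 held 4.83, 4.07 and 3.83% of the counts on Rpl15 and all its copies in Ki, and 0.0382, 0 and 0% in WT, where 0 counts allow a share of up to 0.0694% in WT 2 and 0.0712% in WT 3. Rpl15 itself had 4451, 4128 and 4554 counts in Ki and 5122, 4252 and 4164 counts in WT. With the counts of all copies added, Rpl15 had 129, 110.5 and 134 CPM in Ki and 107, 103 and 109 CPM in WT, so that every Ki library lay above every WT library, with a log2 fold change of 0.23 and an edgeR adjusted p of 0.208. For other members the counts on copies were larger: those on the copies of Rps24 summed to 30.3% and those of Rpl13a to 18.2% of the gene's own counts, so the levels of these 2 genes are uncertain.

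**Figure D5:**
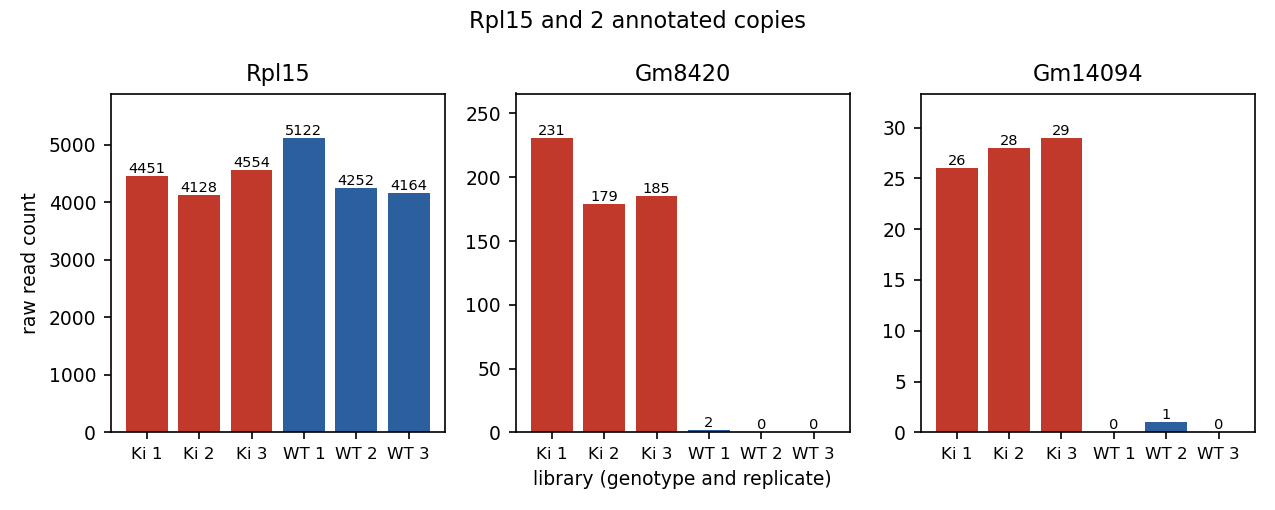
Raw read counts (y axis, from 0, scaled for each panel) of Rpl15 and of its copies Gm8420 and Gm14094 in each library (x axis; Ki red, WT blue). Gm8420 has 179 to 231 counts in the Ki libraries and 0 to 2 in the WT libraries, and Gm14094 has 26 to 29 in Ki and 0 to 1 in WT, while Rpl15 has 4128 to 4554 counts in Ki and 4164 to 5122 in WT.

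Lists of other genes of the translation apparatus are given by their counts and medians, beside the median of 0.13 of the cytosolic ribosomal proteins and 0.01 of all genes. Of all genes tested, 9.81% were higher and 8.26% lower at an unadjusted edgeR p under 0.05. Calls in either direction were 1.90% of all genes with edgeR and 5.59% with DESeq2. Of 7 ribosomal proteins with other names, 0 were called by edgeR or DESeq2. At an unadjusted edgeR p under 0.05, 3 were higher (Fau, Rack1 and Gadd45gip1), and the median log2 fold change was 0.20. This list mixes both ribosomes, so its median belongs to neither. Fau (0.43) and Rack1 (0.22) are cytosolic. Aurkaip1 (0.20), Chchd1 (0.05), Dap3 (0.04), Gadd45gip1 (0.34) and Ptcd3 (-0.11) are mitochondrial. Fau is a small-subunit protein made as a fusion with a ubiquitin-like protein. It had 87.1, 101 and 120 CPM in Ki and 57.6, 85.2 and 85.9 CPM in WT, without overlap, and 0.43 ± 0.16 (edgeR adjusted p 0.195). Of 40 translation factors of the cytosol, 0 were called by edgeR or DESeq2, 0 were higher and 3 lower at an unadjusted p under 0.05, and the median was -0.01. Eef1a1, which brings aminoacyl-tRNA to the ribosome, was at 0.07 ± 0.09 (edgeR adjusted p 0.726). Of 32 genes for ribosome assembly in the nucleolus, 0 were called by edgeR or DESeq2, 3 were higher and 1 lower at an unadjusted p under 0.05, with a median of -0.01. Rrp1, the most abundant, was at 0.06 ± 0.08. RNA polymerase I, which makes the ribosomal RNA precursor, had 14 genes tested with 0 called by either tool, 0 at an unadjusted p under 0.05 and a median of 0.01, and its most abundant subunit Znrd1 was at -0.07 ± 0.09. The 18 genes of mTOR signalling to the ribosome had a median of -0.05, 0 called by either tool and 2 higher at an unadjusted p under 0.05; Maf1, a repressor of RNA polymerase III, was at 0.08 ± 0.08.

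On the mitochondrial side, 26 genes for translation, ribosome assembly, transcription and RNA handling in mitochondria had a median of 0.03, with 0 called by edgeR or DESeq2. At an unadjusted edgeR p under 0.05, 1 was higher, where 9.81% of all genes were. It was Polrmt, the RNA polymerase of mitochondria and not a translation factor, at 0.38 ± 0.14 (edgeR adjusted p 0.184). Tufm, the mitochondrial elongation factor Tu, was at -0.005 ± 0.09, a sign that turned with library size alone. Of the 13 messenger RNAs made in the mitochondrion, the ones these ribosomes translate, 12 were tested. edgeR called 5 lower in Ki (1.28% of all genes were). DESeq2 and the likelihood ratio test called 6 each, beside 3.12% and 2.95% of all genes. The median over the 12 was -0.40. Their counts differed widely: mt-Co1 had 160231 to 212581 in Ki and 249177 to 324931 in WT, but mt-Co3 had 19 to 33 in Ki and 25 to 31 in WT, mt-Nd3 30 to 41 in Ki and 37 to 46 in WT, and mt-Nd4l 67 to 123 in Ki and 110 to 256 in WT. mt-Atp6 was at 0.24 ± 0.15 (edgeR adjusted p 0.442). mt-Nd1, a subunit of respiratory complex I, had 3219, 3150 and 2917 CPM in Ki and 4090, 4186 and 3894 CPM in WT, all Ki libraries below all WT libraries, and a log2 fold change of -0.39 ± 0.07 (edgeR adjusted p 0.021). mt-Nd2, of the same complex, was at -0.48 ± 0.09 (edgeR adjusted p 0.0254) and mt-Co1, of complex IV, at -0.42 ± 0.08 (edgeR adjusted p 0.0252). These 3 calls held without Ki 2 and were lost without each of the other 5 libraries, where the edgeR adjusted p lay between 0.0537 and 0.105. Over all alternatives the 3 calls were lost 16 times, so not only where a library was left out. Of the nuclear genes for the mitochondrial ribosome 0 were called lower; the difference between both sets was not tested.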

How the data were processed

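Per the labels' protocols, RNA of frozen cerebella was made into stranded TruSeq libraries of messenger RNA. The deposited table holds raw read counts by Ensembl gene, which per the submitters' processing notes came from HTSeq 0.6.1; the notes also list TopHat2 2.0.14 and Bowtie2 2.1.0 (mm10), and bcl2fastq 2.17.1.14. The annotation release, strand setting and treatment of reads with several matches were not given in the sources used here. Counts of genes with near-identical copies are therefore uncertain. GENCODE M21 named 48349 of 48709 identifiers, and the 360 others held 0.0503% of counts.

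All 16699 genes that passed filterByExpr (a count of 10 in enough libraries, and 15 in total) were fitted together in edgeR 4.0.16 (R 4.3.3) with TMM factors and genotype as the term. P-values came from the quasi-likelihood F test with Benjamini-Hochberg adjustment. CPM used effective library sizes. The fit was tested on simulated counts. No 2 libraries of 1 genotype agreed within sampling noise. DESeq2 1.42.0, limma-voom (limma 3.58.1), other scalings and filters, lowess offsets (span 0.3), a replicate block, added copies (BLAST 2.17.0) and each library left out were alternatives. Intervals and floors (3 counts) cover counting error only.

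Named were Rpl15, members called, the 8 largest changes of each ribosome at a mean CPM of at least 1, the 5 most abundant per length, the stalk, paralogue pairs, members within 20 Mb of Atxn7, Rps19bp1, Atxn7, and from each other list up to 3 called genes or the most abundant. Rpl30, Mrpl35, Polrmt, Flt1 and the genes named for DESeq2, for no overlap, for promoter motifs or for copies were added after their values were seen. The same holds for the ribosomal proteins with other names besides Fau. The members and lists were chosen with earlier results of these data known.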

Additional observations from a re-analysis of the deposited data

How the results depend on the processing

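No cytosolic or mitochondrial member was called lower under any alternative run. With library size alone, 323 genes were called higher, which is 1.93% of those tested. Of these, 2 were cytosolic members (Rplp1 and Rps10), and the median of all genes moved to 0.08. The log2 fold changes of Rpl10, Rpl22, Rpl36a, Rpl39, Rpl4, Rpl7, Rps24 and Tufm turned to 0.072, 0.048, 0.046, 0.047, 0.068, 0.056, 0.00088 and 0.069. With no filter on low counts, 27889 genes were tested, and 695 were higher (2.49%) and 608 lower. Of the members, 7 of 85 cytosolic and 4 of 78 mitochondrial ones were higher. DESeq2 called 413 higher and 521 lower (3 cytosolic higher, and no adjusted p for Gm14094), and the likelihood ratio test 456 and 492 (3 cytosolic higher). At an adjusted p of up to 0.1, 302 were higher and 419 lower. Rpl22l1 turned to -0.0030 with DESeq2 size factors, -0.0050 with no filter, -0.00074 at a mean CPM of at least 1, -0.0029 with DESeq2, -0.0064 with limma-voom and -0.00066 with copies added. Rpl10 turned to 0.00096 with upper quartile scaling, 0.0012 with TMM without ribosomal protein genes and 0.00097 with copies added. With GC and length offsets, 213 genes were higher and 510 lower, the cytosolic median exceeded the mitochondrial one by 0.028, and Mrpl10, Mrps21, Rpl10, Rpl7, Rps15, Rps19bp1, Rps24 and Rps27 turned to -0.021, -0.068, 0.0096, 0.018, -0.077, -0.11, 0.011 and -0.090.

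Equal replicate numbers are not stated to share a litter, batch or day, so the numbers were not taken as pairs. Same-numbered Ki and WT libraries deviated with correlations of 0.001, 0.174 and 0.318. Libraries 2 and 3 of each group correlated best with their own number, and libraries 1 did not. Whether the numbers mark pairs cannot be told from these values. With the replicate number as a block, 1026 genes were higher (6.14% of all tested) and 1008 lower. That fit called 21 of 83 cytosolic and 7 of 77 mitochondrial members higher, and Rpl22l1 was at -0.0030. With the block and the offsets, 627 were higher (3.75% of all tested) and 992 lower. That fit called 14 of 83 cytosolic and 3 of 77 mitochondrial members higher, and the medians differed by 0.024. Mrpl10, Mrps21, Rpl10, Rpl7, Rps15, Rps19bp1, Rps24 and Rps27 were at -0.022, -0.068, 0.011, 0.018, -0.078, -0.11, 0.0066 and -0.086.

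Leaving out 1 library gave 7 (without Ki 1) to 348 (without Ki 2) genes higher. Genes lower ran from 32 (without Ki 1) to 510 (without Ki 2). Of the cytosolic members 0 to 1 were called higher (Rps14 without Ki 2, edgeR adjusted p 0.0477, where 2.04% of all genes were higher). The mitochondrial median ran from -0.0070 to 0.12 (lowest without Ki 3). Without Ki 3, WT 1, WT 2 and WT 3, 21, 8, 26 and 15 genes were higher and 52, 39, 63 and 63 lower. Ranges that crossed 0 were -0.019 to 0.13 for Mrpl10, -0.075 to 0.13 for Mrps16, -0.078 to 0.089 for Mrps21, -0.056 to 0.035 for Rpl10, -0.070 to 0.019 for Rpl22, -0.085 to 0.098 for Rpl22l1, -0.088 to 0.047 for Rpl36a, -0.094 to 0.081 for Rpl39, -0.034 to 0.022 for Rpl4, -0.097 to 0.071 for Rpl7, -0.0090 to 0.054 for Rpl7l1, -0.18 to 0.030 for Rps24, -0.099 to 0.18 for Rps27, -0.071 to 0.24 for Rps27l, -0.041 to 0.076 for Rps4x and -0.079 to 0.019 for Tufm. Gm8420 stayed called under every alternative that tested it, and Gm14094 under every one that gave it an adjusted p. The cause of these shifts was not tested. The 4 members with too few counts were not tested at this depth.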
